A study of Mus musculus with 5 samples.

Results

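The genes of the major histocompatibility complex (MHC) and of peptide loading were compared between tumor and lung libraries of mouse cells labelled PMN-MDSC (polymorphonuclear myeloid-derived suppressor cell), neutrophil-lineage cells known for restraining T cells in tumor-bearing hosts. Members were every row whose symbol starts with H2-, the mouse MHC prefix, together with B2m, Tap1, Tap2, Tapbp, Tapbpl, Nlrc5, Ciita, Cd74, Erap1, Psmb8, Psmb9, Psmb10, Psme1 and Psme2. They came to 59 of the 55276 rows of the expression table. Of these, 2 were classical class I genes, 30 nonclassical class I genes, 12 class II genes, 14 loading or regulator genes, and 1, H2-Ke6, a gene of the region that encodes no MHC chain. The tumor group had 2 libraries, titled 2 and 3, and the lung group 3 libraries, titled 1, 2 and 3. All were wild type primary mouse cells, each prepared from at least 2000000 sorted cells with 20000000 paired reads stated. Strain, MHC haplotype, age, tumor model and sort markers are not given in the labels or design text used here. Separate animals are not named either, so a p-value here compares libraries and may reflect technical spread alone.

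Class I molecules present peptides from inside the cell to CD8 T cells. The peptides are cut by the proteasome, carried into the endoplasmic reticulum by the TAP transporter, trimmed by Erap1 and loaded with the help of tapasin onto a heavy chain paired with beta-2 microglobulin. Class II molecules present peptides from endosomes to CD4 T cells. Their alpha and beta chains assemble on the invariant chain Cd74, and peptide loading is catalysed by H2-DM and restrained by H2-O. Nlrc5 and Ciita are the main transactivators of class I and class II genes, and act through a promoter module of X and Y boxes bound by the RFX, CREB and NF-Y factors. Neutrophils are known for class I and for little class II, whereas dendritic cells, macrophages and B cells carry both.

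The promoter module is shown first, because it is the sequence that class I and class II genes are known to share. RefSeq promoters (GRCm38.p6, 250 bases before to 50 after each annotated start) were available for 41 members. A TGACG (the core of the X2 element of the X box) followed by an ATTGG (the core of the Y box) with their first bases 22 to 28 bases apart, searched on both strands, was present in 6 of the 41 members and in 0.329% of 32851 promoters. The single cores are common, with ATTGG in 37.4% and TGACG in 20.8% of all promoters. ATTGG was present in 33 and TGACG in 16 of the 41 members. The kappaB motif GGGGATTCC was present in H2-K1, H2-D1, H2-Q6 and H2-Q7, and in 0.25% of all promoters. Capitals mark both cores and the kappaB motif in the stretches below. The marked motifs do not overlap one another, and H2-K1 is shown upstream of the more downstream of its RefSeq starts.
H2-K1, chr17:34000344-34000463, minus strand: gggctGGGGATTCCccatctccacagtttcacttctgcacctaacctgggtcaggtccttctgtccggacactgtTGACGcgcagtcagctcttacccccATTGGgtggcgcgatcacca
H2-D1, chr17:35262918-35263037, plus strand: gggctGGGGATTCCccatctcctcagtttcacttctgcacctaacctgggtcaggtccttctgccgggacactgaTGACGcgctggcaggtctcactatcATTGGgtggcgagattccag
B2m, chr2:122147534-122147653, plus strand: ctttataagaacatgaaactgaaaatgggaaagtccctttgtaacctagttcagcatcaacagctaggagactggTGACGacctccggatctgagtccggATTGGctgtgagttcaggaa
H2-Q7, chr17:35439016-35439134, plus strand: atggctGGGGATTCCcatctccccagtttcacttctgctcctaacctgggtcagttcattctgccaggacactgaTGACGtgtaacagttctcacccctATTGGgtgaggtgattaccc
H2-M3, chr17:37270113-37270232, plus strand: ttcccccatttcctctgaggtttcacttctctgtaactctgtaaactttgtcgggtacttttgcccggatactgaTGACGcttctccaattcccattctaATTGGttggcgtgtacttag
H2-Aa, chr17:34287852-34287972, minus strand: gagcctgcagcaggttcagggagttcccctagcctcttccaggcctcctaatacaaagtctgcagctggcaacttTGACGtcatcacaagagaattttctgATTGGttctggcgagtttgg
H2-Ob, chr17:34238748-34238867, plus strand: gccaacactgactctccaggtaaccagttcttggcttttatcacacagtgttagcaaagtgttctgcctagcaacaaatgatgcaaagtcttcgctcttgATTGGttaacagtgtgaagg
The cores lay 25 bases apart in H2-K1, H2-D1, B2m and H2-M3, 24 in H2-Q7 and 26 in H2-Aa. The H2-K1, H2-D1 and H2-Q7 stretches are near copies of one another, so they are not separate occurrences. H2-Ob is shown as a class II promoter with the Y core and no TGACG in the window, which says only that those letters are not there. A match is a description of the sequence and not a binding site.

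Values were TPM, transcript abundances that are corrected for length and add up to 1000000 in each library. Such shares hold no read numbers, and the depth behind them is unknown. The label PMN-MDSC was checked against marker genes. Ptprc, the pan-leukocyte protein CD45, had 18.5 and 75.3 TPM in tumor libraries 2 and 3, against 842, 926 and 959 TPM in lung libraries 1, 2 and 3. The 10 pan-leukocyte markers added up to 583.5 to 1565 TPM in tumor against 10410 to 11060 in lung. The 10 neutrophil markers added up to 1103 to 3788 TPM in tumor against 36020 to 60990 in lung. S100a8, a neutrophil calcium-binding protein, had 274 and 1103 TPM in tumor libraries against 10842 to 18258 in lung libraries. All 10 of each list were lower in tumor and none was at 0, beside 27% lower and 31.6% higher among all genes tested. The 8 epithelial markers added up to 4695 to 4823 TPM in tumor against 51.0 to 99.8 in lung, and 7 were higher in tumor. Epcam, an epithelial adhesion protein, stood at 257 and 248 TPM in tumor libraries against 2.10 to 5.44 in lung libraries. Of the other lists, 6 of 6 endothelial and 4 of 4 alveolar markers were lower in tumor, with sums of 9.65 to 24.1 TPM in tumor against 146 to 274 in lung and 0.0359 to 0.743 TPM in tumor against 108 to 415 in lung. Sftpc, a surfactant protein, was listed at 0 in tumor library 2. T and natural killer cell markers added up to 2.57 to 3.68 TPM in tumor against 6.48 to 6.96 in lung, and 1 of the 2 tested was lower. In bulk RNA, fewer cells of a type and less RNA per cell cannot be told apart, and the part of cell makeup in the results was not tested.

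Of the 59 members, 8 were listed at 0 in every library and 22, including those 8, had a mean under 1 TPM and were not tested. Of these 22, 13 carry H2-M symbols, and their highest value in any library was 1.29 TPM, of H2-Eb2. The other 37 were tested with limma on log2(TPM + 1), and a call required both 1.5-fold and an adjusted p (Benjamini-Hochberg) under 0.05. On deposited TPM, 23 of the 37 were lower in tumor and 0 were higher, beside 27% lower and 31.6% higher among all 16387 genes tested. Of the 23, H2-Ob, H2-Oa, H2-T10 and H2-T-ps averaged under 1 TPM in tumor and passed the filter through lung alone. Such a gene can only lie lower in tumor, so the direction of these calls partly follows from the filter. Without tumor library 2, 2831 genes were lower, against 4431 with it. No member was higher at an unadjusted p under 0.05. The tumor libraries lay entirely below the lung libraries for those 23 members and entirely above them for 1, beside 35.7% and 39.9% of all tested genes. The smallest p that an exact permutation of 2 against 3 libraries allows for a single gene is 0.1. The median difference was -1.81 on the log2(TPM + 1) scale over the 37 members and 0.02 over all tested genes.

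These directions depend on what the libraries are scaled to. When each library was centred on the 10 pan-leukocyte genes, the median of all tested genes moved to 3.40 and 83.6% of them were called higher and 0.622% lower in tumor. The median of the 37 members moved to 1.57, which relative to all tested genes was -1.83 on both scales. Centring shifts every gene of a library by the same amount, so a value relative to all tested genes cannot change with it. Its sameness on both scales is therefore no check of the result. Leukocyte-centred values are therefore given beside each class.

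**Figure D1:**
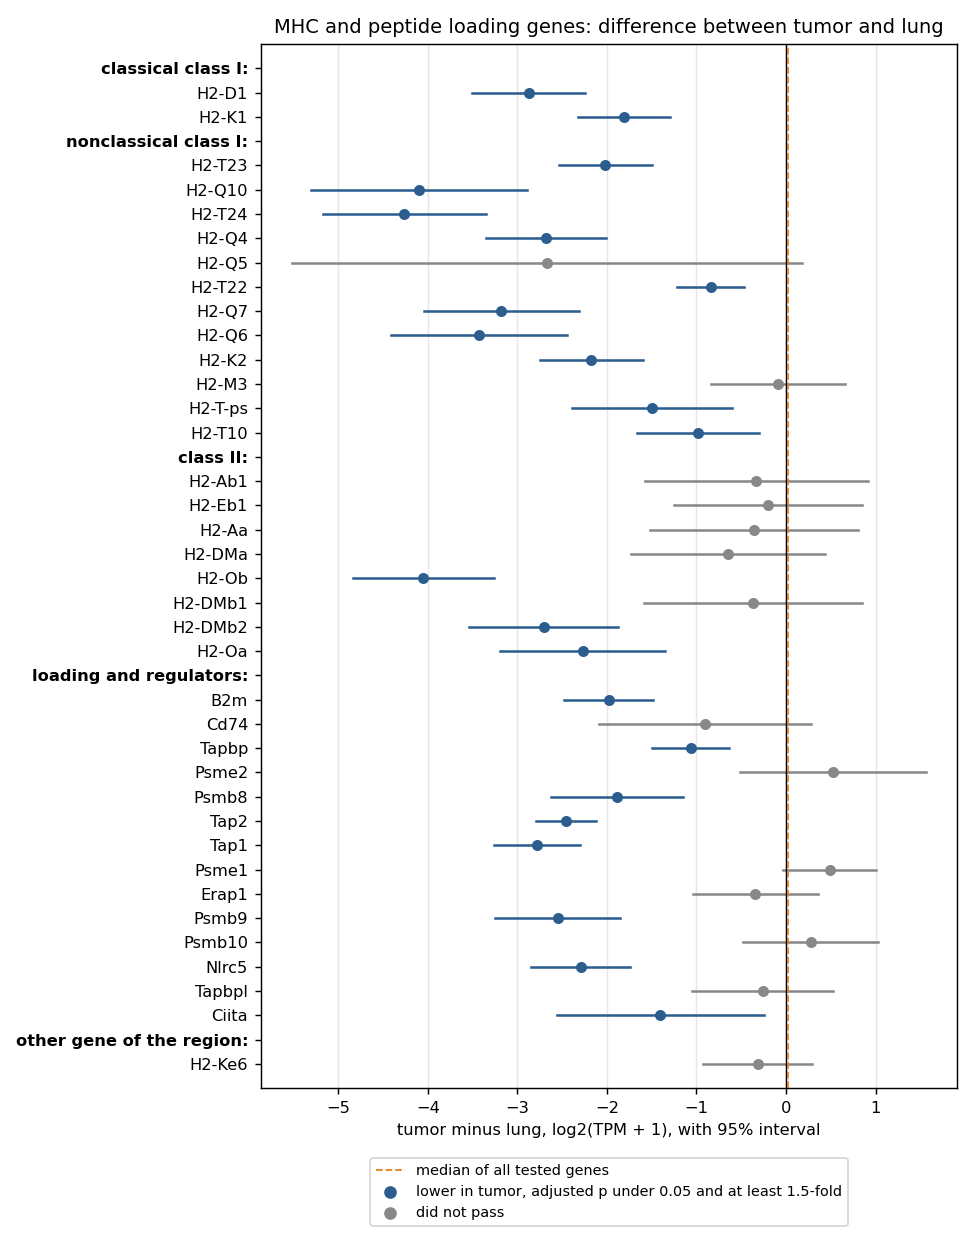
Difference between tumor and lung on the log2(TPM + 1) scale (tumor minus lung, points) with 95% confidence intervals (lines) for the 37 tested members, grouped by class, from 2 tumor and 3 lung libraries; blue marks a call and the dashed line is the median of all tested genes. No interval of a called member reaches 0, class II genes run between -4.05 and -0.20, and after centring on pan-leukocyte genes 30 of the 37 differences change sign.

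Both classical class I heavy chains were lower in tumor on deposited TPM, and after leukocyte centring both differences were above 0 and 1 was called higher. Of all tested genes 27% were lower on deposited TPM, and 83.6% were called higher after centring. Relative to the median of all tested genes, which centring cannot alter, the classical median was -2.36. H2-D1, which presents peptides to CD8 T cells and lies at chr17:35262730-35267499 (GRCm38, plus strand), had 158 and 253 TPM in tumor libraries 2 and 3, against 1548, 1539 and 1335 TPM in lung libraries 1, 2 and 3. It was the most abundant member in every lung library, and ranked 6 and 7 in the tumor libraries. The mean was 7.18-fold lower in tumor, with a log2 difference of -2.87 ± 0.25 (SE) and a limma adjusted p of 0.00136. H2-K1, the other classical heavy chain, at chr17:33996017-34000347 (minus strand), had 242 and 338 TPM in tumor against 1067, 936 and 1020 TPM in lung. Its groups did not overlap, and it was 3.47-fold lower (log2 difference -1.81 ± 0.20 SE, limma adjusted p = 0.00202). Centred on leukocyte genes, the differences were 0.50 for H2-D1 and 1.57 for H2-K1.

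The pair did not keep its proportion. H2-D1 exceeded H2-K1 in lung and was below it in tumor, with a ratio of 0.652 and 0.747 in tumor against 1.45, 1.64 and 1.31 in lung. This ratio is within a library and does not depend on scaling. Of the 31-base words in their transcripts, 77.2% for H2-K1 and 73.3% for H2-D1 occur in no other annotated gene, so some reads could be shared with related genes. The annotated transcripts carry one haplotype, and that of these mice is not given.

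B2m, the light chain of every class I molecule, at chr2:122147686-122153083 (plus strand), had 305 and 408 TPM in tumor against 1460, 1478 and 1266 TPM in lung. It was 3.93-fold lower in tumor (log2 difference -1.98 ± 0.19 SE, limma adjusted p = 0.00166), with no overlap. All of its words are its own. B2m over the sum of H2-K1 and H2-D1 was 0.763 and 0.691 in tumor against 0.558, 0.597 and 0.537 in lung.

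**Figure D2:**
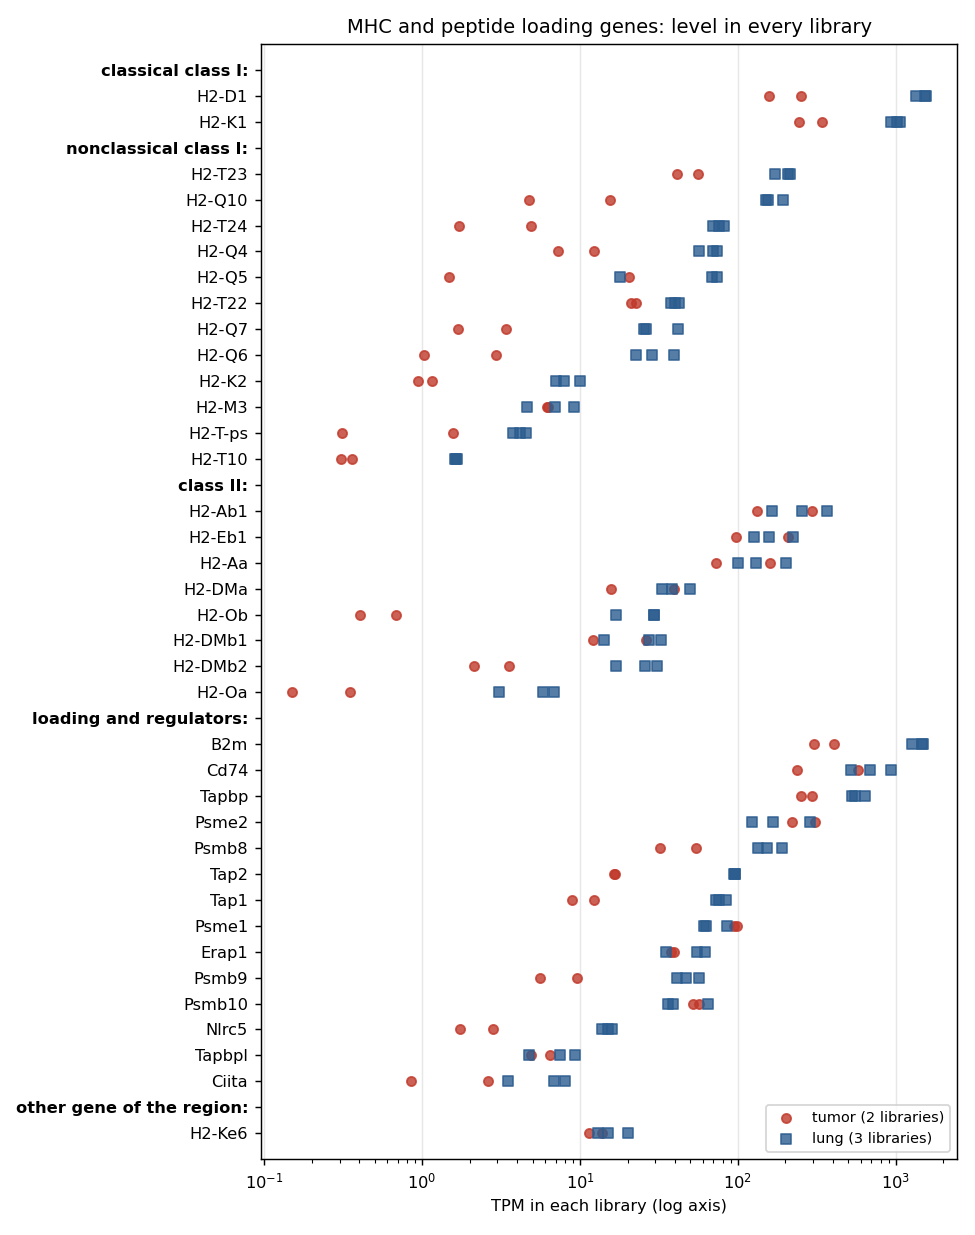
TPM in each library (log axis) of the 37 tested members, grouped by class, with a red circle for each of the 2 tumor libraries and a blue square for each of the 3 lung libraries. On this deposited scale the tumor circles lie left of all lung squares for 23 members, H2-D1, H2-K1, B2m, Tap1 and Tap2 among them, and the sign of these 5 turns after centring on pan-leukocyte genes, while H2-Ab1, H2-Aa, H2-Eb1 and Cd74 overlap between groups.

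Of the 12 tested nonclassical class I genes, 10 were lower in tumor and 0 higher on deposited TPM, with a median of -2.42. After leukocyte centring the median was 0.96, 5 were called higher and 0 lower. Of all tested genes 27% were lower and 31.6% higher on deposited TPM, and 83.6% were higher after centring. Relative to the median of all tested genes, which centring cannot alter, the nonclassical median was -2.44. H2-T23, which encodes Qa-1, a ligand of inhibitory natural killer receptors, had 40.9 and 55.6 TPM in tumor against 206, 214 and 173 TPM in lung (4.09-fold lower, log2 difference -2.02 ± 0.20 SE, limma adjusted p = 0.00171). H2-T24 had 1.71 and 4.87 TPM in tumor against 69.8, 75.7 and 81.3 TPM in lung, 23.0-fold lower (log2 difference -4.26 ± 0.35 SE, limma adjusted p = 0.0013). H2-T24 is well separated in sequence, with 93.6% of its words in no other gene. On the log2(TPM + 1) scale its difference stayed below 0 after leukocyte centring, at -0.88 (limma adjusted p = 0.217, not called). H2-T24 was 1 of 4 members, with H2-Q6, H2-Q10 and H2-Ob, to stay below 0 on that scale, which understates the change of low genes.

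The H2-Q genes are near copies, and their values are uncertain. H2-Q10, known in mice as a secreted class I protein of liver, had 4.73 and 15.4 TPM in tumor against 155, 194 and 151 TPM in lung, a log2 difference of -4.10 ± 0.47 (SE, limma adjusted p = 0.00219). H2-Q4 was 6.83-fold, H2-Q6 15.3-fold and H2-Q7, which encodes Qa-2, 12.2-fold lower in mean TPM, with limma adjusted p-values of 0.00166, 0.00209 and 0.00189. Their own words made up 61.6%, 49.7% and 60.9% of the transcripts, and 69.7% for H2-Q10. H2-Q5 shares 43.2% of its words with H2-Q7 and had 1.47 and 20.4 TPM in tumor against 68.7, 17.9 and 73.9 TPM in lung. Its groups overlapped and it was not called (limma adjusted p = 0.0921), but without tumor library 3 the adjusted p was 0.0475.

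H2-T22 and H2-T10, ligands of some gamma delta T cells, share 47.2% and 47.6% of their words with each other, so the split between them is uncertain. H2-T22 had 21.0 and 22.6 TPM in tumor against 42.4, 37.6 and 39.7 TPM in lung, 1.83-fold lower (log2 difference -0.84 ± 0.15 SE, limma adjusted p = 0.00657). H2-T10 had 0.359 and 0.308 TPM in tumor against 1.66, 1.62 and 1.65 TPM in lung. Like H2-T-ps, it passed the filter through lung alone. H2-T10 and H2-Q5 are annotated as polymorphic pseudogenes. H2-K2 and H2-T-ps, annotated as pseudogenes of other kinds, were 7.94-fold and 4.46-fold lower. H2-T-ps lost its call without tumor library 2, lung library 2 or lung library 3, at limma adjusted p-values of 0.0521, 0.0602 and 0.0598.

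H2-M3 presents peptides that begin with N-formylmethionine, as bacterial and mitochondrial proteins do. It had 6.19 and 6.29 TPM in tumor against 9.17, 4.64 and 6.91 TPM in lung, so the tumor values lay within the lung range. Its log2 difference was -0.09, with a 95% interval of -0.83 to 0.66 (limma adjusted p = 0.812). The H2-M3 promoter printed above holds both cores at the spacing of H2-K1, H2-D1 and B2m, and a link between promoter and level was not tested. Without lung library 1 the H2-M3 difference was 0.12. After leukocyte centring it was 3.29 and called higher (limma adjusted p = 2.04e-05), as were 83.6% of all tested genes.

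Of the 14 loading and regulator genes 8 were lower in tumor and 0 higher on deposited TPM, and after leukocyte centring 10 were called higher and 0 lower. Of all tested genes 27% were lower and 31.6% higher on deposited TPM, and 83.6% were higher after centring. Relative to the median of all tested genes, which centring cannot alter, the median of this class was -1.25. Both subunits of the TAP transporter and tapasin were lower in tumor on deposited TPM, and after leukocyte centring Tap1, Tap2 and Tapbp were above 0 at 0.60, 0.92 and 2.31. Tap2 had 16.6 and 16.5 TPM in tumor against 96.1, 94.9 and 95.3 TPM in lung. The libraries within each group nearly coincided, and the mean was 5.77-fold lower (log2 difference -2.46 ± 0.13 SE, limma adjusted p = 0.000901). Tap1, the other subunit, had 8.92 and 12.2 TPM in tumor against 76.4, 83.7 and 73.2 TPM in lung, 7.36-fold lower (log2 difference -2.78 ± 0.19 SE, limma adjusted p = 0.00105). Tapbp, tapasin, which holds the empty class I molecule at the transporter, had 251 and 295 TPM in tumor against 548, 531 and 637 TPM in lung, 2.10-fold lower (log2 difference -1.07 ± 0.17 SE, limma adjusted p = 0.00496).

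Tapbpl and Erap1 did not pass. Tapbpl, a tapasin-related peptide editor, had 4.91 and 6.41 TPM in tumor against 9.25, 4.74 and 7.47 TPM in lung, with a 95% interval of the log2 difference of -1.05 to 0.52. Erap1, which trims peptides in the endoplasmic reticulum, had 39.6 and 37.6 TPM in tumor against 54.8, 35.3 and 61.4 TPM in lung, with an interval of -1.04 to 0.36. The tumor values of both genes lay inside the lung range.

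The interferon-inducible proteasome subunits parted. Psmb8 and Psmb9, which replace Psmb5 and Psmb6 in the immunoproteasome, were lower in tumor on deposited TPM, while Psmb10, which replaces Psmb7, was not called. After leukocyte centring Psmb8 was at 1.49 and Psmb9 at 0.83. Psmb9 had 5.60 and 9.53 TPM in tumor against 56.8, 47.0 and 41.0 TPM in lung, 6.38-fold lower (log2 difference -2.55 ± 0.27 SE, limma adjusted p = 0.00189). Psmb8 had 31.9 and 54.4 TPM in tumor against 189, 152 and 134 TPM in lung, 3.68-fold lower (log2 difference -1.89 ± 0.29 SE, limma adjusted p = 0.00461). Psmb10 had 52.2 and 57.0 TPM in tumor against 64.7, 35.9 and 38.9 TPM in lung, with an interval of -0.48 to 1.02.

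The constitutive counterparts were higher in tumor on deposited TPM and after leukocyte centring. Psmb6 averaged 180 ± 31.7 TPM in tumor (SD, n = 2) and 42.6 ± 6.76 TPM in lung (SD, n = 3), a log2 difference of 2.05 ± 0.21 (SE, limma adjusted p = 0.00174). Psmb7 averaged 115 TPM in tumor and 39.5 TPM in lung, and Psmb5 97.9 TPM in tumor and 47.3 TPM in lung, with limma adjusted p-values of 0.00207 and 0.0104. Psmb5 lost its call without tumor library 2 (limma adjusted p = 0.071). Each immunoproteasome subunit as a share of itself and its counterpart does not depend on scaling. Psmb9 made up 2.70% and 5.71% of Psmb9 plus Psmb6 in tumor against 53.1%, 55.8% and 50.3% in lung. Psmb8 made up 23.1% and 37.8% of Psmb8 plus Psmb5 in tumor against 77.1%, 79.5% and 74.3% in lung. Psmb10 made up 30.02% and 34.4% of Psmb10 plus Psmb7 in tumor against 58.8%, 49.4% and 51.6% in lung.

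**Figure D3:**
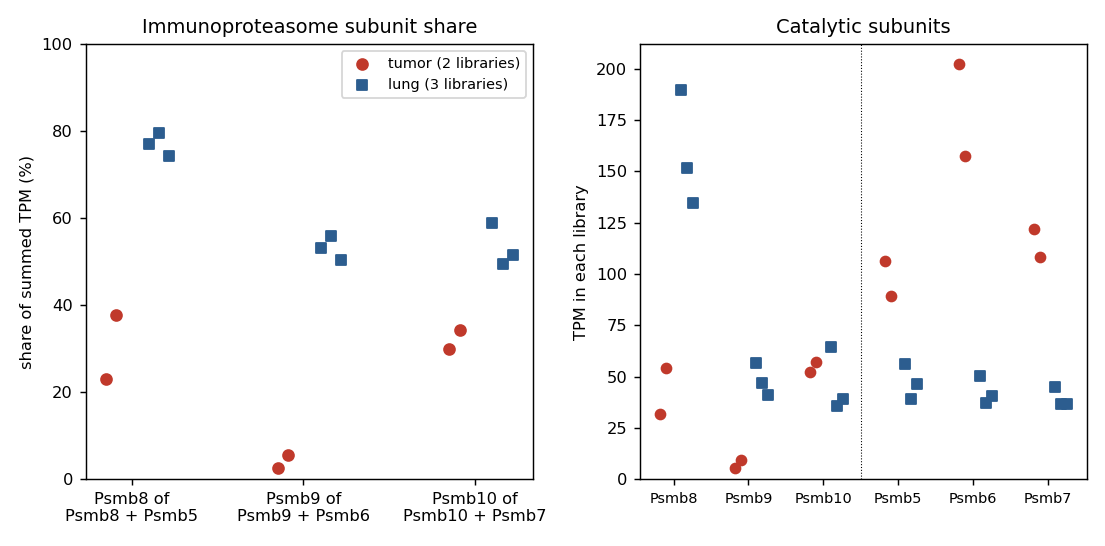
Left, immunoproteasome subunit as a percent of the summed TPM of itself and its constitutive counterpart, and right, TPM of the 6 catalytic subunits, with a point for each library and tumor left of lung. In all 3 pairs both tumor shares lie below the 3 lung shares, from 2.70% to 37.8% in tumor against 49.4% to 79.5% in lung, independent of scaling.

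Psme1 and Psme2, the subunits of the interferon-inducible proteasome activator, did not pass. Psme1 had 94.9 and 98.6 TPM in tumor against 85.7, 62.5 and 60.6 TPM in lung, so it was the tested member whose tumor libraries both exceeded every lung library. Its interval was -0.03 to 1.01 (limma adjusted p = 0.0932), and without lung library 1 the adjusted p was 0.0221. Psme2 had 219 and 308 TPM in tumor against 287, 122 and 168 TPM in lung, with overlap. Of its words 66.5% are its own, the rest being shared with Psme2b.

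Psmb9, Tap1, Psmb8 and Tap2 lie side by side between H2-DMb1 and H2-Ob in the class II region, within chr17:34181987-34216321 (GRCm38). The promoters of Psmb9 and Tap1, on opposite strands, overlap by 275 bases in the RefSeq windows. All 4 genes of this stretch were lower in tumor on deposited TPM and above 0 after leukocyte centring. H2-DMb1 on one side was not called. H2-Ob on the other had the largest ratio of group means among tested members, 46.3, with tumor values of 0.407 and 0.686 TPM. On the log2(TPM + 1) scale H2-T24 and H2-Q10 differed more, at -4.26 and -4.10 against -4.05 for H2-Ob.

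The class II genes fell into separate patterns. On deposited TPM 3 of the 8 tested were lower in tumor and 0 higher, with a median of -0.51, and after leukocyte centring 5 were called higher and 0 lower. Of all tested genes 27% were lower on deposited TPM and 83.6% higher after centring, so 3 of 8 lies near that background. The chains of the conventional molecules overlapped between groups. H2-Ab1, the beta chain of I-A, at chr17:34257689-34269419, had 132 and 296 TPM in tumor against 367, 165 and 254 TPM in lung, with a 95% interval of -1.57 to 0.91 (limma adjusted p = 0.576). H2-Aa, the alpha chain of I-A, had 72.3 and 159 TPM in tumor against 201, 99.8 and 129 TPM in lung, with an interval of -1.52 to 0.81. H2-Eb1, the beta chain of I-E, had 97.5 and 207 TPM in tumor against 222, 126 and 157 TPM in lung, with an interval of -1.25 to 0.85. These intervals reach past 1.5-fold in both directions.

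Cd74, the invariant chain, was the most abundant member of tumor library 3. It had 237 and 578 TPM in tumor against 935, 517 and 688 TPM in lung, with an interval of -2.08 to 0.28 (limma adjusted p = 0.151). H2-DMa, the alpha chain of the loading catalyst, had 15.7 and 39.3 TPM in tumor against 49.4, 33.2 and 38.2 TPM in lung. It was not called (limma adjusted p = 0.233), but without tumor library 3 the adjusted p was 0.039. H2-DMb1 had 12.2 and 25.98 TPM in tumor against 32.5, 14.3 and 27.2 TPM in lung. Without tumor library 2 the differences of H2-Aa, H2-Ab1, H2-Eb1 and H2-DMb1 turned to 0.20, 0.25, 0.34 and 0.15, so their sign depended on that library.

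These genes moved together between libraries of one group. Tumor library 3 exceeded tumor library 2 by 2.19-fold for H2-Aa, 2.23-fold for H2-Ab1, 2.12-fold for H2-Eb1, 2.44-fold for Cd74, 2.5-fold for H2-DMa and 2.14-fold for H2-DMb1. The same ratio was lower for some members, at 1.398 for H2-K1, 1.34 for B2m and 0.996 for Tap2. It was higher for others, at 2.85 for H2-T24, 3.26 for H2-Q10 and 3.11 for Ciita. Ptprc also rose, from 18.5 TPM in tumor library 2 to 75.3 TPM in tumor library 3. A rise of this size was therefore not particular to the class II chains. H2-Aa over H2-Ab1 was 0.546 and 0.537 in tumor against 0.549, 0.604 and 0.509 in lung. Cd74 over H2-Ab1 was 1.79 and 1.96 in tumor against 2.55, 3.13 and 2.70 in lung, with no overlap.

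The 3 class II members that were lower in tumor are H2-Ob, H2-DMb2 and H2-Oa. H2-Ob and H2-Oa passed the filter through lung alone, so their direction partly follows from it. H2-O, known as the inhibitor of H2-DM in B cells, is the product of H2-Oa and H2-Ob. H2-Ob had 0.407 and 0.686 TPM in tumor against 29.5, 16.9 and 29.4 TPM in lung, 46.3-fold lower (log2 difference -4.05 ± 0.31 SE, limma adjusted p = 0.00119). After leukocyte centring its difference was -0.67 and not called (limma adjusted p = 0.384). H2-Oa had 0.151 and 0.350 TPM in tumor against 6.83, 3.08 and 5.81 TPM in lung (limma adjusted p = 0.00506), and without tumor library 2 the adjusted p was 0.0514. After leukocyte centring H2-Oa was at 1.11, a sign that is uncertain at such low values. Per unit of Ptprc the H2-Oa groups overlapped, at 0.00817 and 0.00465 in tumor against 0.00812, 0.00332 and 0.00606 in lung. Both genes have only words of their own.

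H2-DMb2, another H2-DM beta chain, had 2.14 and 3.55 TPM in tumor against 30.8, 16.8 and 25.6 TPM in lung, 8.58-fold lower (log2 difference -2.71 ± 0.32 SE, limma adjusted p = 0.00241), and was at 0.67 after leukocyte centring. H2-DMb2 over H2-DMb1 was 0.176 and 0.137 in tumor against 0.948, 1.18 and 0.943 in lung. These neighbours share 29.7% and 31.4% of their words, so their split is uncertain. H2-Eb2, under the filter, had 0.0403 and 0.156 TPM in tumor against 1.29, 0.722 and 1.22 TPM in lung, and was not tested. H2-Ea-ps had 0 and 0.124 TPM in tumor against 0.115, 0.236 and 0.057 TPM in lung. The remaining class II symbols under the filter were H2-Pa, listed at 0 throughout, and H2-Pb, above 0 in lung library 3 alone.

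Markers of other cell types that carry class II did not all go one way on deposited TPM, where 27% of all tested genes were lower and 31.6% higher. All 8 B cell markers were lower in tumor, none was at 0, and they added up to 2.47 to 7.88 TPM in tumor against 153 to 381 in lung. Cd79a, a chain of the B cell receptor, had 0.574 and 2.84 TPM in tumor against 105, 49.9 and 64.1 TPM in lung. H2-Ob over Cd79a was 0.708 and 0.242 in tumor against 0.281, 0.339 and 0.460 in lung, with overlap. Of 8 macrophage markers, 3 were higher in tumor and 3 lower, with sums of 416 to 981 TPM in tumor against 565 to 657 in lung. Csf1r, a macrophage growth factor receptor, was lower in tumor, with 49.4 and 149 TPM in tumor libraries against 396 to 460 in lung libraries. Its call was lost without lung library 3 (limma adjusted p = 0.057), and its log2 difference of -2.33 became -1.55 without tumor library 2. The 3 higher ones were C1qa, C1qb and C1qc, subunits of complement C1q named after their values were seen, which added up to 323 and 725 TPM in tumor against 39.4, 21.0 and 16.0 TPM in lung. Their sum was 2.25-fold higher in tumor library 3 than in tumor library 2. Of the 6 tested dendritic cell markers 3 were lower and 0 higher. All 8 on that list added up to 15.1 to 42.1 TPM in tumor against 105 to 142 in lung. Most of this sum was 1 gene, Itgax, named after its values were seen. It had 10.2 and 35.8 TPM in tumor against 83.8, 88.5 and 116 TPM in lung. Flt3, a dendritic cell growth factor receptor, had 3.07 and 1.79 TPM in tumor against 1.07, 0.506 and 1.75 TPM in lung. The part of these cell types in the class II values was not tested.

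**Figure D4:**
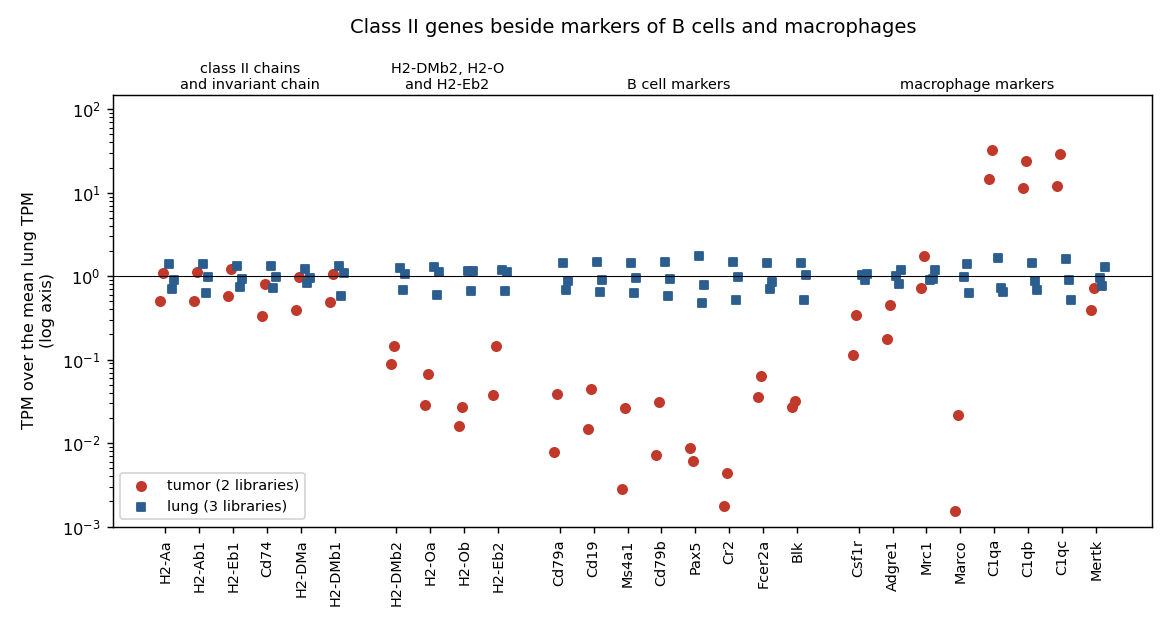
TPM over the mean lung TPM (log axis) of class II genes, Cd74, B cell markers and macrophage markers, with a point for each library and tumor left of lung. The class II chains overlap between groups, and C1qa, C1qb and C1qc lie above all lung points. H2-DMb2, H2-Oa, H2-Ob and the B cell markers have both tumor points below all lung points on deposited TPM, an order that partly depends on the scaling. After centring on pan-leukocyte genes H2-DMb2, H2-Oa and 3 of the 8 B cell markers were above 0, a sign that is uncertain for genes near 0 TPM in tumor. The other B cell markers stayed below 0, Cd79a at -1.47 (limma adjusted p = 0.0435).

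Class II was also set against class I within each library. The sum of H2-Aa, H2-Ab1 and H2-Eb1 was 302 and 661 TPM in tumor against 790, 391 and 541 TPM in lung, and that of H2-K1 and H2-D1 400 and 591 TPM in tumor against 2615, 2474 and 2356 TPM in lung. The ratio of the sums was 0.756 and 1.12 in tumor against 0.302, 0.158 and 0.229 in lung, with no overlap and independent of scaling. Per unit of Ptprc, H2-Ab1 was at 7.17 and 3.93 in tumor against 0.436, 0.178 and 0.265 in lung, and H2-K1 at 13.1 and 4.49 in tumor against 1.27, 1.01 and 1.06 in lung. H2-Ob per Ptprc overlapped, at 0.022 and 0.00911 in tumor against 0.0351, 0.0182 and 0.0307 in lung.

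Both transactivators were lower in tumor on deposited TPM, and after leukocyte centring Nlrc5 was at 1.08 and Ciita at 1.97. Nlrc5, which drives class I genes, had 1.75 and 2.82 TPM in tumor against 16.0, 13.7 and 15.03 TPM in lung, 6.53-fold lower (log2 difference -2.29 ± 0.21 SE, limma adjusted p = 0.00154). Ciita, which drives class II genes, had 0.844 and 2.63 TPM in tumor against 8.05, 3.52 and 6.83 TPM in lung. The groups did not overlap, and it passed narrowly at a log2 difference of -1.40 ± 0.45 (SE, limma adjusted p = 0.0446). Ciita lost its call without tumor library 2 (difference -0.92, adjusted p = 0.257), tumor library 3 (0.0647), lung library 1 (0.131) or lung library 3 (0.147).

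The wider antigen presentation list held 42 other genes, of which 39 were tested. On deposited TPM 11 were higher and 14 lower in tumor, with a median of -0.35, and after leukocyte centring 34 were called higher and 0 lower. These counts lie near the shares of all tested genes, 31.6% higher and 27% lower on deposited TPM and 83.6% higher after centring. Among the factors that act on MHC promoters, 6 of 11 were lower and 0 higher. Irf1, an interferon-induced factor, averaged 32.3 ± 7.75 TPM in tumor (SD, n = 2) and 167 ± 6.75 TPM in lung (SD, n = 3), a log2 difference of -2.35 ± 0.19 (SE, limma adjusted p = 0.00128). Both chains of the interferon gamma receptor were lower in tumor, Ifngr1 at 46.8 TPM in tumor and 238 TPM in lung and Ifngr2 at 15.7 TPM in tumor and 50.4 TPM in lung (limma adjusted p = 0.00317 and 0.00384). After leukocyte centring Irf1, Ifngr1 and Ifngr2 were above 0, at 1.02, 1.01 and 1.78.

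The counts by sub-list that follow are on deposited TPM, where 31.6% of all tested genes were higher and 27% lower. Of 6 constitutive proteasome genes 5 were higher in tumor and 0 lower. Of 5 genes of class I assembly or peptide trimming 3 were higher and 1 lower. Pdia3, the disulfide isomerase of the loading complex, averaged 350 TPM in tumor and 103 TPM in lung, and Calr, the chaperone calreticulin, 443 TPM in tumor and 148 TPM in lung, with limma adjusted p-values of 0.00169 and 0.00295. Both were higher in tumor on deposited TPM, where Tap1, Tap2 and Tapbp were lower. Of 4 enzymes of the class II compartment 2 were higher and 1 lower. The higher ones were the proteases Ctsl, at 459 TPM in tumor and 79.7 TPM in lung, and Lgmn, at 118 TPM in tumor and 33.5 TPM in lung (limma adjusted p = 0.00143 and 0.0039). Of 5 costimulatory genes 3 were lower and 0 higher, among them Cd80, a ligand of CD28, at 8.61 TPM in tumor and 32.4 TPM in lung, and Icosl, the ligand of ICOS, at 3.55 TPM in tumor and 16.4 TPM in lung (limma adjusted p = 0.00921 and 0.0104). Icosl lost its call without lung library 2 (limma adjusted p = 0.0508) or lung library 3 (0.0568). After leukocyte centring Cd80 was at 1.48 and called higher, and Icosl was at 1.32 and not called. Of 6 tested class I-like genes outside the MHC, Procr, the endothelial protein C receptor, was higher at 33.0 TPM in tumor and 0.508 TPM in lung (limma adjusted p = 0.000901). Hfe, a regulator of iron uptake, was lower at 7.28 TPM in tumor and 31.5 TPM in lung (limma adjusted p = 0.0151). It lost its call without lung library 1 (limma adjusted p = 0.0582) or lung library 3 (0.0712). Without tumor library 2 the Hfe difference was -1.44, and after leukocyte centring it was 1.32.

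H2-Ke6, the gene of the region that encodes a hydroxysteroid dehydrogenase, had 13.7 and 11.4 TPM in tumor against 15.01, 20.2 and 13.1 TPM in lung and was not called (limma adjusted p = 0.293). Only 23.9% of its words are its own, so its value is uncertain.

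By the authors' deposited table and its rule, 1 of the 51 members with a deposited p-value was called, Tap2, at a deposited adjusted p of 0.0206, beside 0.629% of 34956 genes. The count of members with an unadjusted p under 0.05 in the authors' deposited table was 22 of 51, beside 23% of all 34956 genes.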

How the data were processed

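RNA from sorted mouse cells was compared between 2 tumor and 3 lung libraries, grouped by the tissue label with numbers from the titles. The authors ran Salmon 0.9.1 on GENCODE mouse M24 transcripts, per the labels' design text, and deposited TPM for 55276 rows. TPM sums to 1000000 in each library, so a rise in some transcripts lowers the others, and Salmon divides reads between near-identical genes by a model. The authors' deposited p-values were used only to describe their calls, and their deposited fold changes were not used. Rows with spreadsheet dates as symbols, 26 in all and at most 0.0826% of a library's TPM, were left out.

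Genes averaging 1 TPM or more over the libraries were tested on log2(TPM + 1) in limma 3.58.1 (R 4.3.3, intensity trend), two-sided and adjusted by Benjamini-Hochberg over 16387 genes. Calls needed an adjusted p under 0.05 and 1.5-fold. The log2(TPM + 1) scale understates the change of low genes, and each fold is a ratio of group means. Coordinates and the share of 31-base words found in no other gene came from GENCODE M21 (GRCm38), matched by symbol, and promoters from RefSeq. The motif search used Python 3.11.15.

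The members, gene lists and tests were chosen with earlier results of these data known. Members with a mean of at least 1 TPM could be named. Of the other presentation genes, up to 2 called genes with the smallest p per sub-list and Psmb5, Psmb6 and Psmb7 were named, and of the markers the first of each list, except where the text says otherwise. A gene that this rule takes is not reported here. Alternatives were other pseudocounts, filters, scalings and limits, limma without trend, the title number as a block, and leaving out each library.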

Additional observations from a re-analysis of the deposited data

How the results depend on the processing

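Of the 23 member calls, 18 held in all 14 alternatives other than centring on pan-leukocyte genes, where they were run. The 5 that did not were Ciita, H2-Oa, H2-T-ps, H2-T10 and H2-T22. Ciita also lost its call with no filter (limma adjusted p = 0.0875) and without mitochondrial genes (0.0592), where the median of all tested genes was 0.13. Pseudocounts of 0.1 and 0.01, a filter of 5 TPM, upper quartile scaling, limma without trend and no fold limit changed no member's call. The cause of these changes was not tested. TPM keeps no depth, so no counting error could be given.

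Centring on pan-leukocyte genes called 13697 genes higher and 102 lower in tumor. It called 1 classical, 5 nonclassical, 5 class II and 10 loading or regulator genes, all higher. Reversed differences under it were 0.50 for H2-D1, 1.57 for H2-K1, 1.39 for B2m, 0.60 for Tap1, 0.92 for Tap2, 2.31 for Tapbp, 3.12 for Tapbpl, 3.04 for Erap1, 1.49 for Psmb8, 0.83 for Psmb9, 1.08 for Nlrc5, 1.97 for Ciita and 2.48 for Cd74. Among class II genes they were 3.02 for H2-Aa, 3.05 for H2-Ab1, 3.18 for H2-Eb1, 2.73 for H2-DMa, 3.01 for H2-DMb1, 0.67 for H2-DMb2 and 1.11 for H2-Oa. Among nonclassical genes they were 1.20 for H2-K2, 3.29 for H2-M3, 0.70 for H2-Q4, 0.71 for H2-Q5, 0.20 for H2-Q7, 1.88 for H2-T-ps, 2.39 for H2-T10, 2.53 for H2-T22 and 1.36 for H2-T23. Among other genes they were 3.06 for H2-Ke6, 1.32 for Hfe, 1.02 for Irf1, 1.01 for Ifngr1, 1.78 for Ifngr2, 1.48 for Cd80, 1.32 for Icosl, 1.04 for Csf1r and 1.22 for Pecam1, an endothelial adhesion protein. For low genes such as H2-Oa and H2-Q7 the reversal is uncertain, because log2(TPM + 1) understates their change.

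Leaving out each library in turn gave 3454 to 4669 genes higher and 2831 to 4179 lower, with 2 classical, 9 to 11 nonclassical, 2 to 4 class II and 7 to 8 loading genes called. With 1 tumor library left, that library is assumed to vary like the lung libraries. Over these fits the difference ran from -0.92 to 0.20 for H2-Aa, -0.91 to 0.25 for H2-Ab1, -0.89 to 0.15 for H2-DMb1, -0.74 to 0.34 for H2-Eb1 and -0.31 to 0.12 for H2-M3. Without mitochondrial genes H2-M3 was at 0.0281.

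Title numbers 2 and 3 occur in both groups, and their libraries' deviations from the group means correlated at 0.00343 and 0.0833. With 2 tumor libraries those deviations mirror each other, so the correlations are not separate checks. They cannot settle whether the libraries are paired. When that number entered as a replicate block, 3662 genes were higher and 3449 lower, and 2 classical, 8 nonclassical, 3 class II and 9 loading genes were called. Under this block H2-Eb1 was at 0.0177 and H2-M3 at 0.12. H2-T-ps, H2-T10, H2-T22 and Cd80 missed the limit at limma adjusted p-values of 0.0728, 0.076, 0.0536 and 0.0521, and H2-Q5 and Psme2 passed at 0.0382 and 0.0486.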
